A study of Mus musculus with 7 samples.

Results

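The receptor complex through which myeloid cells sense bacterial lipopolysaccharide (LPS) was followed in 10 genes: Ly96, Cd14, Cd180 and Ly86 for accessory receptor proteins, Lbp for a soluble LPS carrier, Myd88, Tirap, Ticam1 and Ticam2 for the adaptors inside the cell, and Irak4 for the first kinase. The set was chosen on a measured value, the large rise of Ly96 in the comparison described here, and the other members are partners or adaptors of the same receptor. Of the 10 genes, 9 had a row among the 19494 genes with a symbol in the table, each with 1 row, whereas no row carries the symbol Irak4, which is not analysed here. CD45+CD11b+ cells had been sorted from spleen on day 14 after allogeneic hematopoietic cell transplantation (allo-HCT), with 1 Clariom S Mouse array per mouse. In the ROCK1/2-inhibitor group, 4 mice (R1 to R4) were injected i.p. with Y-27632 at 8 mg/kg in 100 µl for 10 days, starting 4 days after transplantation, and in the vehicle group 3 mice (V2 to V4) received PBS in the same way. All 7 mice were wildtype BALB/cAnN recipients, irradiated 2 times with 5 Gy and given bone marrow and T cells from C57BL6/N donors, and animals of the study were between 6 and 14 weeks old. Cells of donor and recipient origin were not separated in the sort.

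Values are log2 intensities, in which 1 unit is a doubling of the signal, and the median over all rows lay between 2.14 and 2.19 on every array. The gate was checked first. Itgam (CD11b) had log2 intensities from 8.56 to 9.66 and Ptprc (CD45) from 8.56 to 9.96 over the 7 arrays. One field of the labels describes CXCL12-abundant reticular cells. Cxcl12 had log2 intensities between 1.82 and 2.58 and the leptin receptor gene Lepr between 1.45 and 1.69, around and below the array medians, and the samples were read as the sorted myeloid cells that the other fields name. The gate holds neutrophils, monocytes and macrophages together, so fewer cells of a type and less RNA per cell cannot be told apart in these bulk samples.

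LPS is lifted from bacterial membranes by the LPS-binding protein LBP, passed to CD14 and loaded onto MD-2, the product of Ly96, which sits on the outer part of TLR4. A pair of such units then joins, and the inner domains recruit adaptors. TIRAP brings MyD88 to the membrane, and MyD88 gathers the IRAK kinases toward NF-κB, while TRAM (Ticam2) brings TRIF (Ticam1) to TLR4 in endosomes, which leads to interferon genes. CD180, also called RP105, resembles TLR4 but lacks its signaling domain, and it reaches the surface with MD-1, the product of Ly86, which resembles MD-2. In mice, CD180 with MD-1 is known to restrain TLR4 in macrophages and dendritic cells and to stimulate B cells.

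Ly96 was higher in every mouse given the ROCK1/2-inhibitor than in any vehicle-treated mouse. Its log2 intensity was 8.67 in R1, 9.31 in R2, 9.04 in R3 and 9.41 in R4, against 5.97 in V2, 6.72 in V3 and 7.07 in V4. The nearest mice of the groups, R1 and V4, lay 1.59 apart, which exceeds the spread within either group. The means were 9.11 ± 0.33 (SD, n = 4) with ROCK1/2-inhibitor and 6.59 ± 0.57 (SD, n = 3) with vehicle, a log2 difference of 2.52 (standard error 0.28) or 5.74-fold. Counted from the highest, this difference had rank 2 among 22139 transcript clusters, and since the set was chosen on it, it is given as a description.

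Tlr4 itself, the receptor that MD-2 serves, showed no such difference. Its log2 intensity was 5.09 in R1, 4.99 in R2, 4.82 in R3 and 4.74 in R4, against 4.40 in V2, 4.90 in V3 and 5.53 in V4. The inhibitor mice lay inside the range of the vehicle mice. The log2 difference was −0.03 (standard error 0.25, 95% interval −0.59 to 0.53, adjusted p = 0.981 from limma), and its sign turned when single arrays were left out, with values from −0.30 without V2 to 0.26 without V4. Among vehicle mice, Ly96 and Tlr4 shared their order, V2 lowest and V4 highest. The difference between the 2 genes within a mouse, set to a vehicle mean of 0, spanned 1.93 to 3.02 in the inhibitor mice. It was −0.08 in V2, 0.18 in V3 and −0.10 in V4. This separation follows from the rise on which Ly96 was chosen and the small difference of Tlr4, and is given as a description.

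**Figure D1:**
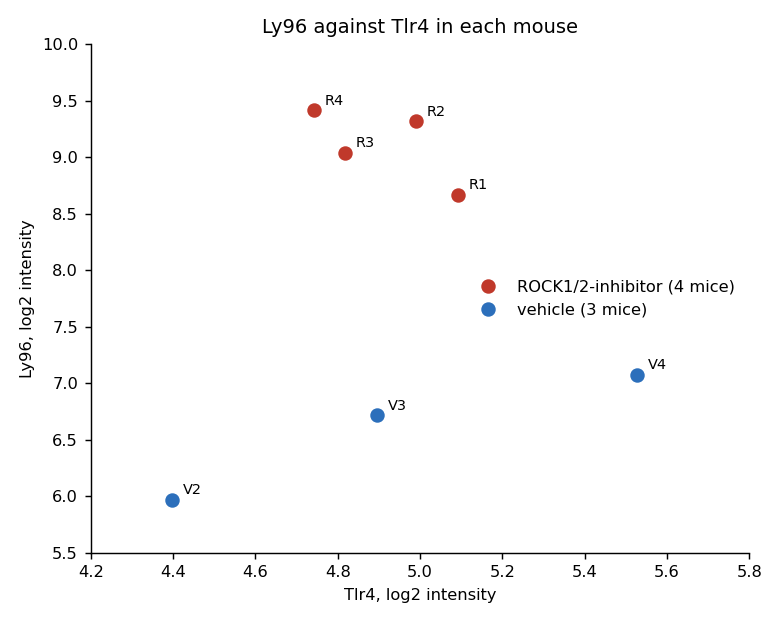
Log2 intensity of Ly96 (vertical axis) against that of Tlr4 (horizontal axis), 1 point per mouse, red for ROCK1/2-inhibitor and blue for vehicle. The inhibitor mice sit between 8.67 and 9.41 for Ly96 and within the vehicle range for Tlr4 (4.40 to 5.53).

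Cd14, which encodes the LPS co-receptor that hands LPS to MD-2, had a log2 intensity of 4.31 in R1, 4.75 in R2, 3.97 in R3 and 3.18 in R4, against 2.90 in V2, 3.23 in V3 and 3.31 in V4. R4 lay among the vehicle mice, so the groups overlapped. The means were 4.05 ± 0.66 (SD, n = 4) with ROCK1/2-inhibitor and 3.15 ± 0.22 (SD, n = 3) with vehicle, a log2 difference of 0.91 (standard error 0.32). Without R4 this difference was 1.20 and without R2 it was 0.68.

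Cd180 had a log2 intensity of 7.13 in R1, 6.73 in R2, 7.06 in R3 and 7.01 in R4, against 4.81 in V2, 5.40 in V3 and 6.55 in V4. The inhibitor mice were close together, whereas the vehicle mice were spread out, and V4 reached to within 0.19 of R2. The means were 6.98 ± 0.17 (SD, n = 4) with ROCK1/2-inhibitor and 5.58 ± 0.89 (SD, n = 3) with vehicle, a log2 difference of 1.40 (standard error 0.35).

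Ly86, whose product MD-1 carries CD180 to the surface, had a log2 intensity of 8.79 in R1, 8.19 in R2, 8.13 in R3 and 8.08 in R4, against 6.38 in V2, 7.46 in V3 and 7.45 in V4. R1 stood above the other inhibitor mice and V2 below the other vehicle mice, and the groups did not overlap. The log2 difference was 1.20 (standard error 0.29), 1.04 without R1 and 0.84 without V2. Within a mouse, the difference between Cd180 and Ly86 was higher with ROCK1/2-inhibitor by 0.20, less than the SD of 0.29 among inhibitor mice and of 0.58 among vehicle mice.

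**Figure D2:**
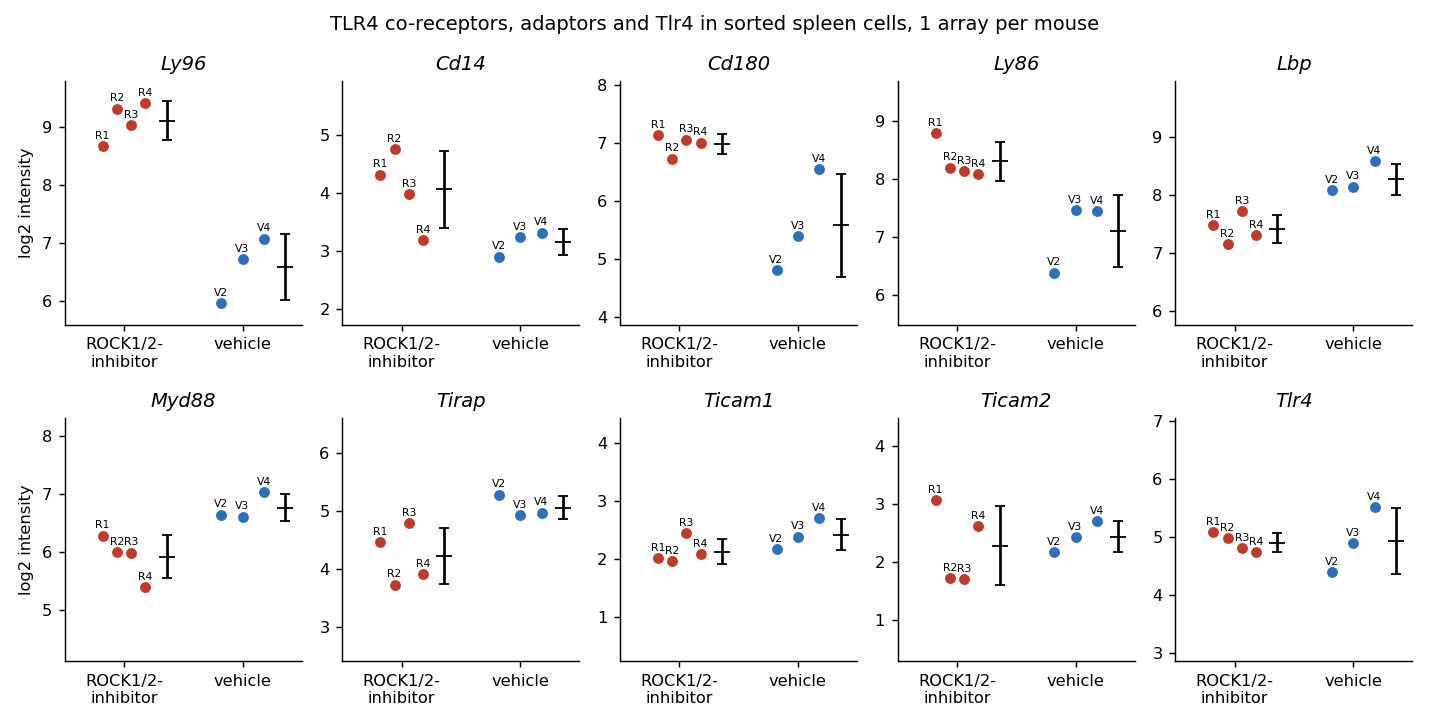
Log2 intensity of the 9 measured genes and of Tlr4 in each mouse, ROCK1/2-inhibitor (red) left of vehicle (blue), with the mean and SD of each group as a black bar. All panels span the same number of log2 units. Ly96, Cd180 and Ly86 are higher in all inhibitor mice, Lbp, Myd88 and Tirap are lower, and the groups overlap for Cd14, Ticam1, Ticam2 and Tlr4.

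Lbp had a log2 intensity of 7.49 in R1, 7.16 in R2, 7.72 in R3 and 7.32 in R4, against 8.09 in V2, 8.15 in V3 and 8.59 in V4. Every inhibitor mouse lay below every vehicle mouse. The means were 7.42 ± 0.24 (SD, n = 4) with ROCK1/2-inhibitor and 8.28 ± 0.27 (SD, n = 3) with vehicle, a log2 difference of −0.86 (standard error 0.19). LBP is known as an acute-phase protein of the liver. The albumin gene Alb, a marker of hepatocytes, was dim here, between 1.29 and 1.91 on all arrays. The row of Lbp was brighter than 96.4% to 98.7% of rows, although brightness depends on the probes as well as on the RNA.

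Myd88, the adaptor shared by most Toll-like receptors and the IL-1 receptor family, had a log2 intensity of 6.28 in R1, 6.00 in R2, 5.99 in R3 and 5.39 in R4, against 6.64 in V2, 6.61 in V3 and 7.03 in V4. All inhibitor mice lay below the vehicle mice, with R4 lowest. The means were 5.92 ± 0.37 (SD, n = 4) with ROCK1/2-inhibitor and 6.76 ± 0.23 (SD, n = 3) with vehicle, a log2 difference of −0.84 (standard error 0.22).

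Tirap, which guides MyD88 to TLR4 at the cell membrane, had a log2 intensity of 4.46 in R1, 3.73 in R2, 4.79 in R3 and 3.91 in R4, against 5.28 in V2, 4.92 in V3 and 4.97 in V4. R3 came to within 0.13 of V3, the smallest gap among the genes whose groups did not overlap. The log2 difference was −0.83 (standard error 0.26).

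The adaptors of the TRIF-dependent arm were dim. Ticam1 ranged from 1.97 to 2.44 with ROCK1/2-inhibitor and from 2.17 to 2.70 with vehicle, a log2 difference of −0.29 (standard error 0.18). Ticam2 ranged from 1.70 to 3.07 with ROCK1/2-inhibitor and from 2.16 to 2.70 with vehicle, a log2 difference of −0.15 (standard error 0.34). The groups overlapped for both, and R1 and R4 lay above R2 and R3 for Ticam2. On some arrays both genes were below the array median.

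**Figure D3:**
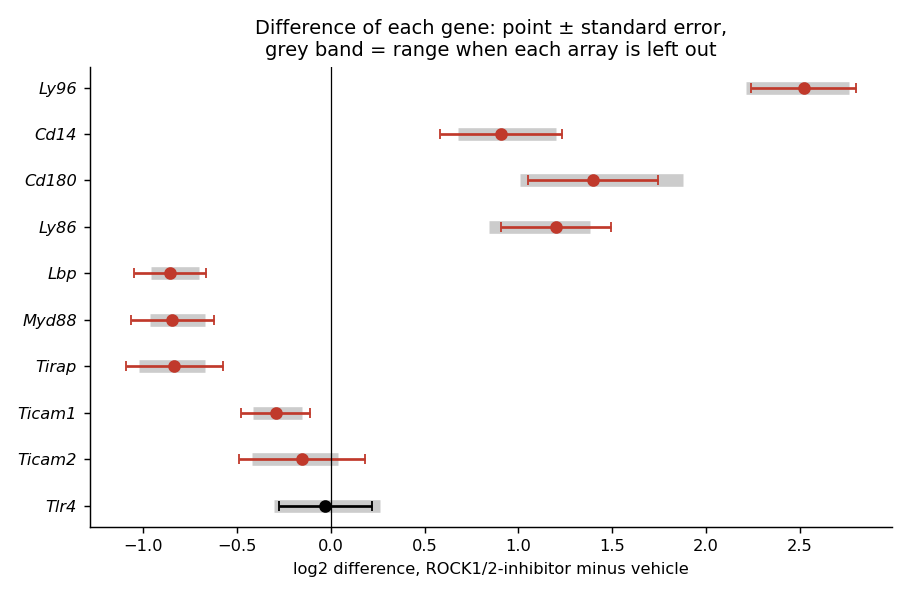
Log2 difference (ROCK1/2-inhibitor minus vehicle) of the 9 measured genes in red and of Tlr4 in black, as a point with its standard error, and in grey the range of values when each array in turn is left out. Ly96, Cd14, Cd180 and Ly86 lie above 0 and Lbp, Myd88, Tirap and Ticam1 below 0 throughout, while the ranges of Ticam2 (−0.42 to 0.04) and Tlr4 cross 0.

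By role, the 4 accessory receptor genes had higher means with ROCK1/2-inhibitor and the LPS carrier and the 4 adaptors had lower means. The groups overlapped for Cd14, Ticam1 and Ticam2, and the sign of Ticam2 turned when single arrays were left out. The groups did not overlap for 6 of the 9 genes, 3 of them higher and 3 lower, against 13.3% of all transcript clusters. Only Ly96 passed an adjusted p of 0.05 in limma, 1 of 9 against 2.23% of all transcript clusters, and no member passed without R2, R3, R4 or V2. The contrast is the one that the set was chosen on, so nothing is read from these counts. The median log2 difference was −0.15 over the 9 genes and 0.0049 over all transcript clusters.

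The mice did not rank alike in all of these genes. Among inhibitor mice, R1 had the lowest Ly96 and the highest Ly86, Cd180 and Myd88, and R4 had the highest Ly96 together with the lowest Cd14 and Myd88. Among vehicle mice, V2 was lowest for Ly96, Cd14, Cd180 and Ly86, while V4 was highest for Ly96, Cd14, Cd180, Lbp and Myd88. V4 therefore lay nearest to the inhibitor mice in Ly96 and Cd180 and farthest from them in Lbp and Myd88.

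The starts of Cd180, Ly86 and Myd88 are shown because Cd180 and Ly86 encode the partners of a complex and had higher levels together, while Myd88 had a lower one. Promoter sequences from RefSeq (GRCm38.p6) were matched by symbol for 6 of the 10 genes: Cd180, Ly86, Myd88, Tirap, Ticam1 and Irak4. Each run gives the 150 bases before the annotated start of transcription, 5′ to 3′ on the strand of the gene, for Cd180 at chr13:102693397-102693546 (plus strand), Ly86 at chr13:37345195-37345344 (plus strand) and Myd88 at chr9:119340019-119340168 (minus strand). Capitals mark a match to 1 of 5 searched motifs.
Cd180: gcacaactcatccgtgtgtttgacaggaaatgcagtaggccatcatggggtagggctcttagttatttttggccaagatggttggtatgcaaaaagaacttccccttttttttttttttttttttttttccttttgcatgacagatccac
Ly86: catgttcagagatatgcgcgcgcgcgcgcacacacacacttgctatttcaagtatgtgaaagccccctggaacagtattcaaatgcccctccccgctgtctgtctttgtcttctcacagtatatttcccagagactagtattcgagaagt
Myd88: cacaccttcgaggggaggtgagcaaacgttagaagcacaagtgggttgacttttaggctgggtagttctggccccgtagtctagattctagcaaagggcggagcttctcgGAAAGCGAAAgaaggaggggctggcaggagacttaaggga
On both strands, the letters gaggaa (core of PU.1 sites), tgantca (AP-1), ttnngnaa (C/EBP), for NF-κB ggg and tttcc with any 2 bases between them, and for the core of the interferon-stimulated response element (ISRE) gaaa and gaaa with any 2 bases between them, were searched, with n for any base. Myd88 held 1 ISRE core match, starting 40 bases before the start site. Among the sequences not printed, Ticam1 held 1 PU.1 core match, starting 30 bases before its start site. Tirap and Irak4 held 0 matches. Over 27025 promoters with the same window, 1.60% held the ISRE core, 14.4% the PU.1 core, 4.27% the AP-1 letters, 22.8% the C/EBP letters and 0.903% the NF-κB letters. Cd180 and Ly86 had 0 matches to the 5 motifs in this window.

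The genes whose profiles were most like that of Ly96 were sought over the 7 arrays, by the root mean square difference of log2 values after each gene's vehicle mean was set to 0. Among 19493 other genes the closest were Ssb (0.37 log2 units), which encodes the RNA-binding La protein, Prpf39 (0.41), a splicing factor gene, Hmgn5 (0.42), which encodes a nucleosome-binding protein, Uprt (0.47) and Aif1 (0.49), which encodes the macrophage protein IBA1. The difference between the groups stays in this measure, so a gene with a rise as large as that of Ly96 comes close. Counted from the highest difference, Ssb had rank 12, Prpf39 10, Hmgn5 13, Uprt 4 and Aif1 6. Since Ly96 was chosen on its rise, the order is given as a description and does not show that genes vary together among mice. In Ssb, as in Ly96, R4 was highest and V2 lowest, at 9.96 and 6.83. The same held for Uprt and Aif1, whereas R3 was highest for Prpf39 and Hmgn5. Cd180 came at rank 107 (0.93 log2 units), Ly86 at rank 209 (1.09) and Cd14 at rank 542 (1.35), while Lbp, Myd88 and Tirap lay at ranks from 18777 to 18868.

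Around these members, 118 of 126 listed genes of the TLR4 pathway were measured in 8 lists. Of the 118, 5 passed an adjusted p of 0.05 in limma (4.24%), 1 higher and 4 lower, against 1.06% higher and 1.17% lower among all transcript clusters. An unadjusted p under 0.05 was found for 34 (28.8%), against 15.3%. All transcript clusters include many dim rows, and without the dimmest 25% of rows 8 list genes and 726 of 16604 transcript clusters passed. The lists were chosen with earlier results of these data known, so nothing is read from these shares. The integrin β2 gene Itgb2, whose product pairs with CD11b and binds LPS, had a mean of 7.49 ± 0.38 (SD, n = 4) with ROCK1/2-inhibitor and of 8.90 ± 0.16 (SD, n = 3) with vehicle, a log2 difference of −1.42 (standard error 0.22, adjusted p = 0.0212 from limma). Ptpn6, which encodes the phosphatase SHP-1, fell by 1.22 (adjusted p = 0.0340) and Tnip1, whose product works with the deubiquitinase A20 to limit NF-κB, by 0.92 on the log2 scale (adjusted p = 0.0376). Il1b, a target of LPS signaling, rose to 8.30 ± 0.48 (SD, n = 4) with ROCK1/2-inhibitor, against 6.62 ± 0.33 (SD, n = 3) with vehicle, a log2 difference of 1.68 (standard error 0.27, adjusted p = 0.0234). Ebi3, a subunit of IL-27, fell by 1.74 (adjusted p = 0.0402). None of the 5 passed without R2, R3, R4, V2 or V3, 13 genes of the lists passed without R1, and Ptpn6 and Tnip1 did not pass without V4.

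In the lists of both signaling arms and of receptor transport, no gene passed in limma. Of 17 measured genes of the MyD88-dependent arm, 11 were below 0 and 6 above, with a median log2 difference of −0.12, and 2 had an unadjusted p under 0.05: the kinase gene Syk (−0.89, adjusted p = 0.0795) and Tab1 (−0.53, adjusted p = 0.285), which encodes a partner of the kinase TAK1. Without V2, the difference of Tab1 was −0.28. Of 12 genes of the TRIF-dependent arm, 9 were below 0, with a median of −0.41 and 5 at an unadjusted p under 0.05. Tbkbp1, which encodes an adaptor of the kinase TBK1, had a log2 difference of −0.80 (adjusted p = 0.0584), and Tank, another TBK1 adaptor gene, one of 0.79 (adjusted p = 0.0912). Of 14 genes for folding and transport of Toll-like receptors, 9 were above 0 and 5 below, with a median of 0.10. In limma 0 passed and 5 had an unadjusted p under 0.05, 2 of them higher and 3 lower. Those with the smallest p were Unc93b1 (−1.13, adjusted p = 0.0513), whose product escorts the endosomal receptors, and Nrros (−1.20, adjusted p = 0.0859), which encodes a protein of the endoplasmic reticulum. Without R1, Unc93b1, Nrros and Tank passed (adjusted p = 0.0147, 0.0245 and 0.0203 from limma), and Unc93b1 passed under 6 of 17 alternatives in all. Irf7 of the TRIF-dependent arm and Pip4k2a of receptor transport also passed without R1. With all arrays their log2 differences were −1.72 and 0.72 (adjusted p = 0.133 and 0.107 from limma).

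The other lists were mixed in direction. Of 14 genes of LPS handling and other LPS sensors, Itgb2 fell and 13 did not pass (median −0.12). Of 24 negative regulators of TLR4 signaling, Ptpn6 and Tnip1 fell and 22 did not pass, with 11 genes above 0 and 13 below (median −0.0033). Among LPS-response genes reached through MyD88, Il1b rose and 18 of 19 did not pass, with 10 genes above 0 and 9 below (median 0.06). Nearest to passing were Ptgs2 (0.95, adjusted p = 0.0506 from limma) and Tnf (−1.14, adjusted p = 0.0632), and both passed under some alternatives. Among the genes reached through TRIF and interferon, Ebi3 fell and 16 of 17 did not pass, with 12 above 0 and 5 below (median 0.05).

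**Figure D4:**
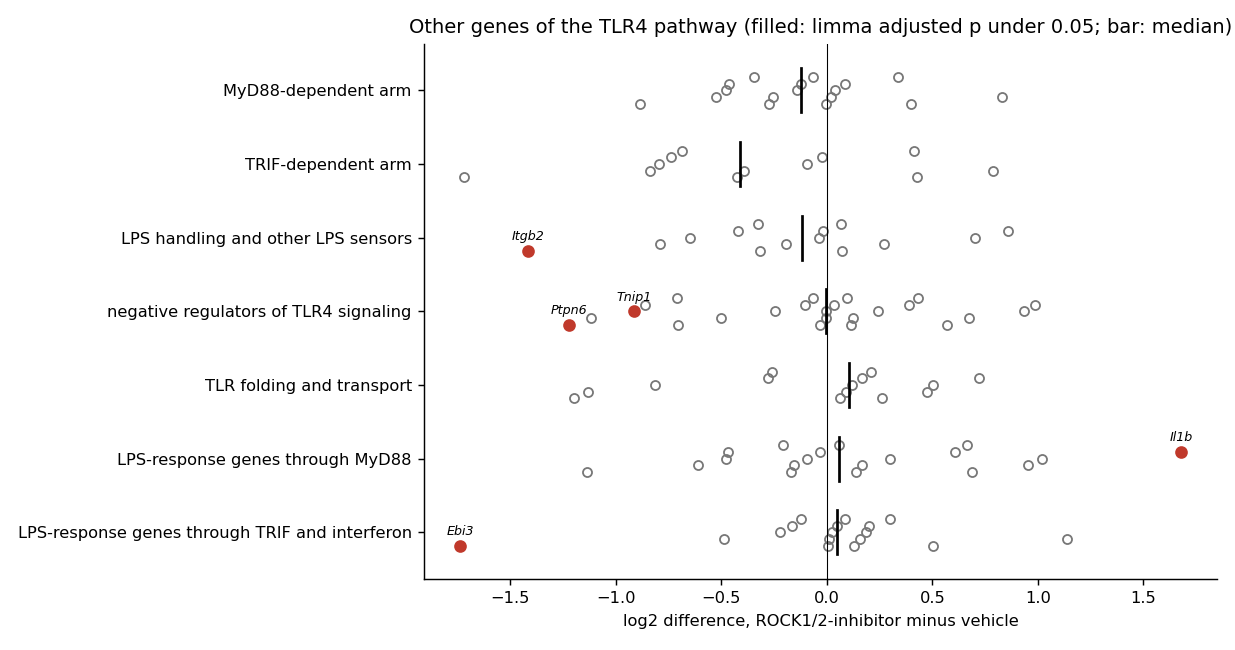
Log2 difference (ROCK1/2-inhibitor minus vehicle, horizontal axis) of each measured gene in 7 pathway lists, filled red where the limma adjusted p was under 0.05, with the list median as a black bar. The medians range from −0.41 for the TRIF-dependent arm to 0.10 for folding and transport, and the filled points are Itgb2, Ptpn6, Tnip1, Il1b and Ebi3.

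Markers of the cell types in the gate differed between the groups as well. The mean log2 intensity of 12 monocyte markers was 5.33 to 5.54 in the inhibitor mice and 5.08 to 5.28 in the vehicle mice, with Clec4a3 and Ms4a4c higher by 1.61 and 1.35 (adjusted p = 0.0178 and 0.0374 from limma) and 10 not passing. Of the 12, 6 were above 0 and 6 below, with a median log2 difference of 0.02. That of 13 neutrophil markers was 9.35 to 9.56 in the inhibitor mice and 9.77 to 10.05 in the vehicle mice, with Mpo, Prtn3 and Ltf lower by 1.62, 1.59 and 0.85 (adjusted p = 0.0293, 0.0421 and 0.0372 from limma) and 10 not passing. Of the 13, 5 were above 0 and 8 below, with a median of −0.15, so neither list had a single direction over its genes. The list means of the groups overlapped in neither case, and the part of these cell types in the differences of the members was not tested.

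Of 10 macrophage markers, Aif1 rose by 2.24 on the log2 scale (adjusted p = 0.0292) and 9 did not pass, and the list means overlapped, at 2.46 to 2.80 with ROCK1/2-inhibitor and 2.30 to 2.62 with vehicle. B cells, which also use CD180 and MD-1, left little signal. The 9 measured B cell markers had list means of 1.63 to 1.84 with ROCK1/2-inhibitor and 1.64 to 1.71 with vehicle, 6 of them were below the array median on all arrays, and 0 passed in limma or had an unadjusted p under 0.05. Cd79a, of the B cell receptor, did not exceed 1.82 in any mouse. For the 5 hepatocyte markers the list means were 1.77 to 2.11 with ROCK1/2-inhibitor and 1.74 to 1.86 with vehicle, with 0 passing and 0 at an unadjusted p under 0.05. Of the 5, 1 was below the array median on all arrays, and all 5 had a log2 difference above 0 (median 0.16). Eosinophil markers ranged more widely among the inhibitor mice, from 2.66 in R2 to 4.09 in R1, than among the vehicle mice, from 3.70 to 4.05. All 7 had a log2 difference below 0 (median −0.28), with 0 passing and 0 at an unadjusted p under 0.05.

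**Figure D5:**
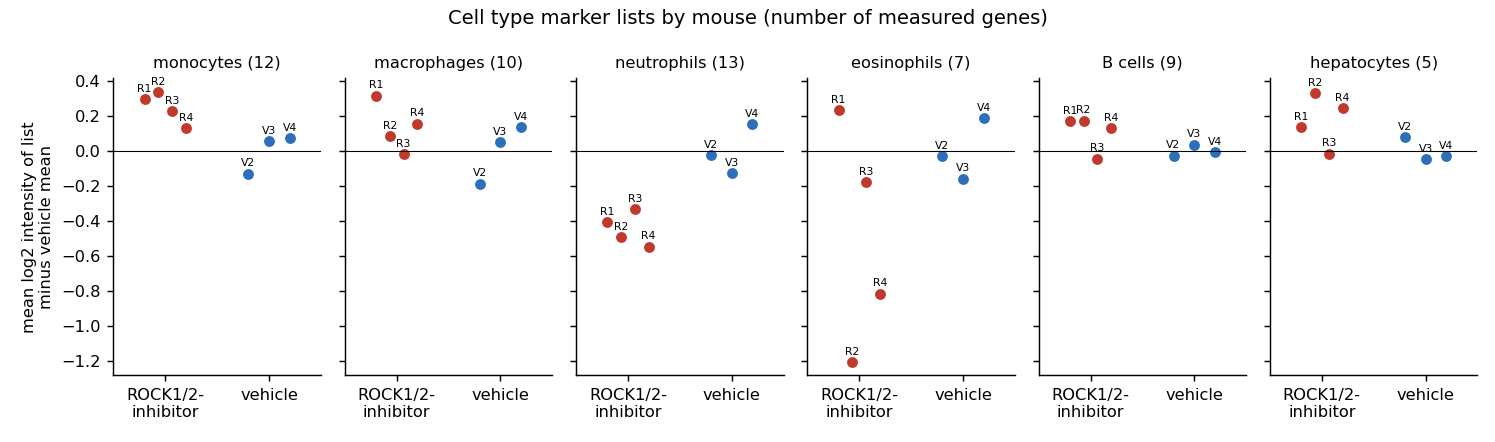
Mean log2 intensity of 6 marker lists in each mouse, minus the mean of the vehicle mice (vertical axis), ROCK1/2-inhibitor (red) left of vehicle (blue). The 4 inhibitor mice lie above the vehicle mice for monocyte markers and below them for neutrophil markers, and the other lists overlap.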

How the data were processed

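Sorted CD45+CD11b+ spleen cells of 4 ROCK1/2-inhibitor treated and 3 vehicle-treated mice were measured on Clariom S Mouse arrays. The values are log2 intensities that the authors deposited after Robust Multi-Array Average (RMA) normalization and summary to the gene level with pd.clariom.s.mouse. Among tools, oligo and RMA stand in the submitters' processing notes, and their versions and the genome build are not given in the sources used here. Of 22203 rows, 64 with other identifiers were left out and 22139 transcript clusters were tested. The platform annotation gives 1 symbol for 19527 of these, and a gene is represented by its brightest row over all arrays.

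Both groups were fitted in limma (version 3.58.1, R 4.3.3) by lmFit followed by eBayes, two-sided and without covariates. P-values were adjusted by Benjamini-Hochberg over all tested rows and called under 0.05, the approach named in the methods of the study. The fit was tested on simulated data. Figures were drawn with Python 3.11.15 and matplotlib 3.10.9. The members and lists were chosen with earlier results of these data known. Genes were named by rule: all members, Tlr4, at most 6 genes per pathway list past the threshold or, where none passed, the 2 with the smallest p, the 5 profiles closest to Ly96, and markers that passed. Itgam, Ptprc, Cxcl12 and Lepr served to check the gate, and Alb, Cd79a, Irf7, Pip4k2a, Ptgs2 and Tnf were picked with their values known. The alternatives changed the variance model (trended and robust), weighted the arrays, repeated the quantile normalization, centred on medians, applied cyclic loess, dropped the dimmest 25% of rows, kept all rows, kept rows with 1 symbol, averaged the rows of a symbol, added the replicate number as a block, or omitted 1 array at a time. With 7 arrays, 1 per mouse, their number limits the precision.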

Additional observations from a re-analysis of the deposited data

Results flagged for a closer look

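In 2 of 26 genes checked, 1 inhibitor mouse lay far from the other 3, and chance gives this in about 1 of 20 groups. For Ly86, R1 had a log2 intensity of 8.79 and the others 8.08 to 8.19 (gap over range 0.846). For Tbkbp1, R3 had 2.85 and the others 2.28 to 2.38 (gap over range 0.835). The vehicle group of 3 is too small for this check.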

How the results depend on the processing

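The log2 difference of Ly96 was 2.21 to 2.76 when each array was left out and 2.40 to 2.67 under the other alternatives, and those of the other members kept their sign except Ticam2 (−0.42 to 0.04 when each array was left out). The median over all transcript clusters moved by less than 0.1. The number of members past an adjusted p of 0.05 was 1, and 3 with the trended and robust variance model (Ly96, Cd180 and Ly86). It was 2 with array weights (Ly96 and Lbp) and 3 with quantile normalization again (Ly96, Lbp and Myd88). It was 4 with cyclic loess (Ly96, Cd180, Lbp and Myd88) and 4 without the dimmest rows (Ly96, Cd180, Ly86 and Lbp). When each array was left out it was 0 to 2, depending on the array. The number of pathway genes was 5, and 8 with array weights, 8 with quantile normalization again, 8 with cyclic loess, 8 without the dimmest rows, 11 with the replicate block, and 0 to 13 when each array was left out. Among all transcript clusters the number was 494, and it was higher in these settings too. It was 553 with the trended and robust variance model, 657 with array weights and 612 with quantile normalization again. With cyclic loess it was 615, without the dimmest rows 726 of 16604, and with the replicate block 964. When each array was left out it ranged from 2 (without R2, R4 or V2) to 1035 (without R1). Since no vehicle mouse has the number 1, the block also takes R1 out of the comparison, and its differences equal those without R1. The cause of these shifts was not tested otherwise. Unc93b1 passed with array weights, quantile normalization again, cyclic loess, without the dimmest rows and with the block (adjusted p = 0.0388, 0.0308, 0.0343, 0.0359 and 0.0257 from limma). Nrros and Tank passed with the block (0.0200 and 0.0331), and Irf7 with the block and with the trended and robust variance model. The difference of Tlr4 was 0.0032 with quantile normalization again and −0.30 to 0.26 when each array was left out (adjusted p from 0.649 to 0.999 over all alternatives). Adjusted p ranged from 0.00718 to 0.0922 for Itgb2 and from 0.00576 to 0.0932 for Il1b. Tnip1 did not pass with the trended and robust variance model (adjusted p = 0.0803), nor with the replicate block (0.0525), where Ebi3 did not pass either (0.0688). No sign of a pairing was seen between mice with the same number, although so few pairs cannot exclude one. Deviations from the group means correlated at 0.096 for number 2, −0.13 for 3 and −0.03 for 4. Mice with unlike numbers gave values from −0.13 (R1 and V2) to 0.18 (R1 and V3). With the replicate block 1 member, Ly96, passed. Ticam1 and Ticam2 lie near the array median.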
